A study of Mus musculus with 8 samples.

Results

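Heart muscle draws much of its energy from fatty acids, and 32 genes of that route were followed here in sorted cells of the mouse embryonic heart. They were taken by gene name from the annotation in the array files: 15 genes of fatty acid uptake and oxidation, 9 of the citric acid cycle with its entry enzyme pyruvate dehydrogenase, 6 regulators, and 2 genes of oxygen and energy buffering. They stand among 27729 gene names on the array, and 30 of them were bright enough to be tested, among 12875 tested genes. Acads, a short-chain acyl-CoA dehydrogenase, and Ppara, a fatty-acid-sensing nuclear receptor, were not well above background on any of the 8 arrays, and no fold is given for them. Of the 30 tested genes, 28 were well above background on all 8 arrays and 2, Ppargc1a and Ckmt2, on 7 arrays.

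The samples came from hearts of minKGFP transgenic mouse embryos at stage E10.5, at midgestation. All 8 samples carry the same transgene, a bacterial artificial chromosome (BAC) built so that green fluorescent protein (GFP) is made under the control of minK (Kcne1), a potassium channel subunit. Hearts were digested with pancreatin and collagenase, and the cells were sorted by brightness into GFP-high cells, labelled as cardiac conduction system, and GFP-low cells, labelled as chamber myocardium. Each group has 4 samples that the series text calls biological replicates. How many embryos went into a sample is not given in the sources used here. Both groups come from the transgenic line, so there is no group without the reporter, and the gate rests on brightness alone.

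Fatty acids enter a heart cell through the membrane protein CD36 and are bound in the cytoplasm by fatty acid binding protein 3. The carnitine shuttle carries them into the mitochondrion, where acyl-CoA dehydrogenases, the trifunctional protein and their partners shorten them to acetyl-CoA. The citric acid cycle oxidises acetyl-CoA from fat and from pyruvate, and pyruvate dehydrogenase kinases close the pyruvate entrance. The coactivator PGC-1 alpha (Ppargc1a), working with PPAR and estrogen-related receptors, is known to drive many of these genes together. The embryonic heart relies largely on glycolysis, and oxidation of fat becomes dominant after birth.

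The microarray reads each gene through 60-base probes, and 45 probes stood for the 32 genes. Of these genes 21 had 1 probe, 9 had 2 and 2 had 3. The probes of Ppargc1a and Ogdh are shown first because the former pair gave very different differences and the latter pair, which lie close together in 1 gene, gave nearly the same one. Positions and sequences are as the array files give them, on the mouse genome build mm9. For Ppargc1a, the first 30 bases of each probe are shown. The first lies at chr5:51848928-51848987 and the second at chr5:51846897-51846956, with 2031 bases between their starts:
Ppargc1a first probe: ccccttcaaatggcagcatttccatgaaga
Ppargc1a second probe: attcatttatcaccagcatattgtgttctg
The Ogdh probes lie at chr11:6255299-6255358 and chr11:6255369-6255428, with 70 bases between their starts:
Ogdh first probe: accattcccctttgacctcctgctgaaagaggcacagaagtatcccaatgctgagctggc
Ogdh second probe: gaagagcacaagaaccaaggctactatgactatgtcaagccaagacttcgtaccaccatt
The 2 other genes whose arrays did not overlap between the groups, Fabp3 (chr4:129992608-129992667) and Cpt2 (chr4:107576571-107576610, where the files place 40 of its 60 bases), had 1 probe each, of which the first 30 bases are:
Fabp3: catcagcctggacccagttcctactatgta
Cpt2: actgcagctctaaagcccttcttaaggaga
The annotation in the files does not say which part of the transcript a probe reads. The brightest probe stood for each gene, and 4 of the 11 genes with several probes (Cd36, Cpt1a, Dlst and Hadha) had probes whose differences pointed in opposite directions.

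Levels below are log2 of the array's processed signal minus the 75th percentile of that array, so that 0 is the brightness of the 75th percentile spot, and differences are GFP-high minus GFP-low on the same scale. The GFP-high arrays had between 36.3% and 48.8% of their 43379 non-control spots well above background, and the GFP-low arrays between 40.5% and 50.7%. Replicates 1 and 2 of both groups shared 1 slide and scan and replicates 3 and 4 the other. The median tested gene was 0.16 higher in GFP-high cells, 0.27 within slide 1 and 0.06 within slide 2. The expression test was limma's moderated test over all 12875 genes with Benjamini-Hochberg adjustment, which called 18 genes (0.14%) at an adjusted p under 0.05. Without GFP-high replicate 1, as without GFP-low replicate 4, it called 1 gene. Leaving out GFP-high replicate 2 or 3 left 7 calls in each case, and leaving out any of the other replicates left 0. The p-values measure the spread among these 4 samples a group, and 5 ng of RNA was amplified from each sample before labelling.

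The cell type labels were set against marker genes. All 8 cardiomyocyte markers were well above background on every array of both groups, and none was called. Their differences ran from 0.02 to 0.71 with a median of 0.32, 6 of the 8 lay above the median tested gene, and log2 of their summed signal ran from 11.27 to 11.92 in GFP-high and from 10.67 to 11.58 in GFP-low samples. Kcne1 itself was higher in GFP-high cells by 1.29 ± 0.35 (SE), without overlap of the arrays, at a limma adjusted p of 0.202. Of the 6 conduction markers none was called, 4 had a positive difference and the median was 0.96. Besides Kcne1, Bmp2 was at 2.82, Tbx3 at 1.46, Tbx2 at 0.63 without overlap of the arrays, Isl1 at -0.38 and Hcn4 at -0.65. Bmp2 was above background on 4 arrays of GFP-high and 2 of GFP-low cells, and Tbx3 on 3 of the former and 2 of the latter. The summed signal of the 6 conduction markers ran from 3.65 to 3.93 in GFP-high and from 2.98 to 3.67 in GFP-low samples. Both this sum and the median of 0.96 include Kcne1, whose control also drives the GFP used for sorting, so they partly restate the gate. Of 10 endothelial markers, Nfatc1 (-0.46) and Egfl7 (0.64, without overlap) were above background on all 8 arrays, Cdh5 (-0.03) and Kdr (-0.04) on 2 arrays of GFP-high and 3 of GFP-low cells, and Pecam1 and Tek on none. The other 4 were above background on no GFP-high array and on 1 to 3 GFP-low arrays. The summed signal of the 10 ran from 2.04 to 2.78 in GFP-high and from 1.70 to 2.92 in GFP-low samples. The summed signal of 5 leukocyte markers ran from 3.50 to 3.96 in GFP-high and from 1.82 to 2.57 in GFP-low samples, with Ptprc and Csf1r not above background on any array. Lyz2, the brightest of them, averaged 3.56 in GFP-high and 2.10 in GFP-low samples (1.46 ± 0.24, limma adjusted p 0.0948) and makes up most of the sum. Cd68 averaged -0.63 in GFP-high and -1.57 in GFP-low samples, with overlap (0.94 ± 0.68, limma adjusted p 0.535). Aif1 was above background on 2 arrays of GFP-high and 1 of GFP-low cells. The part of these markers in the results on energy genes was not tested. In sorted cell samples of this kind, fewer cells of a type and less RNA per cell cannot be told apart.

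No gene of fat oxidation, of the citric acid cycle, of their regulation or of energy buffering was called in either direction. The smallest limma adjusted p among the 30 was 0.262 and the largest 0.993. At an unadjusted limma p under 0.05 there were 4 genes, Fabp3, Cpt2, Acadl and Ppargc1a, or 13.3% of the 30 against 14.3% of all tested genes, so the share was near the background. The 4 arrays of 1 group lay wholly above those of the other for 3 genes, or 10%, against 8.95% of all tested genes. Fabp3 and Cpt2 lay above (background 5.86%) and Ppargc1a below (background 3.08%) in GFP-high cells. Of the 30 genes, 18 had a positive difference, as had 7993 of all 12875 tested genes, and 15 lay above the median tested gene. The median of the 30 was 0.15, beside 0.16 for all tested genes. Leaving out GFP-high replicate 3, the array with the fewest spots above background, raised the non-overlapping genes from 3 to 11, with the background at 22% of all genes. Leaving out GFP-low replicate 4 raised them to 6, with the background at 14.3%. The number with an unadjusted p under 0.05 was 2 without GFP-high replicate 1, without GFP-high replicate 2 or without GFP-low replicate 1, with 10.4% to 13.2% of all tested genes. It was 6 without GFP-high replicate 3, with 20% of all tested genes. With any other replicate left out it was 3 to 5, with 9.67% to 13.6% of all tested genes.

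**Figure D1:**
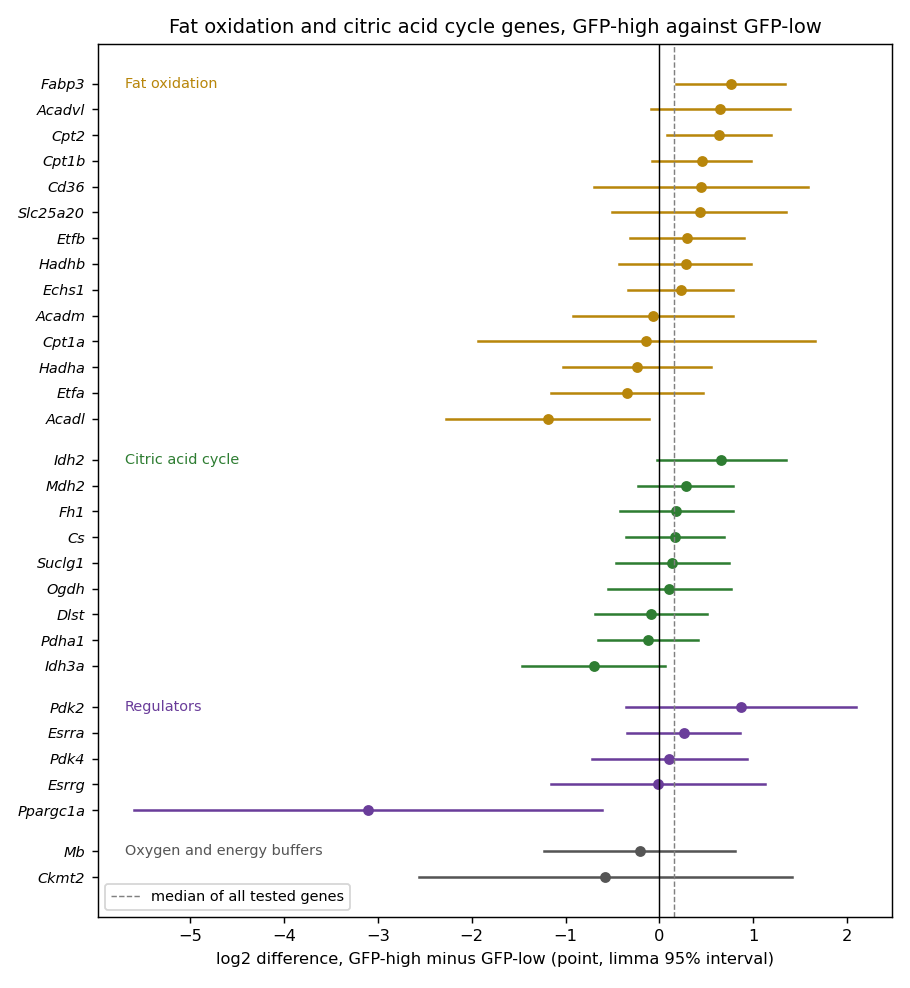
Difference between GFP-high and GFP-low cells (log2, points) with limma's 95% interval (lines) for the 30 tested genes, grouped by role; the dashed line is the median of all tested genes at 0.16. The intervals of Fabp3 and Cpt2 lie above 0, those of Acadl and Ppargc1a lie below it, and the other 26 cross 0.

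The precision differed widely between these genes. The 95% interval lay inside a 2-fold change in either direction for 14 of the 30, and it crossed 0 for 26. Mdh2, for example, had an interval from -0.23 to 0.78, and Cs one from -0.36 to 0.69. By contrast the interval of Cpt1a ran from -1.93 to 1.66 and that of Ckmt2 from -2.56 to 1.41, so that sizeable differences in either direction were not detectable for them.

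In fat oxidation, 9 of 14 tested genes had a positive difference, beside 7993 of all 12875 tested genes. The median was 0.29, with a range from -1.19 to 0.76. The largest positive difference was that of Fabp3, the cytoplasmic fatty acid carrier of heart muscle. Fabp3 levels in GFP-high replicates 1 to 4 were 5.97, 6.03, 5.60 and 5.74, and in GFP-low replicates 5.28, 5.36, 4.64 and 5.02. Every GFP-high array was above every GFP-low array, within slide 1 by 0.68 and within slide 2 by 0.84 on average. The difference was 0.76 ± 0.25 (SE), or 1.69-fold, with a 95% interval from 0.18 to 1.34. Its limma adjusted p was 0.262, and an exact two-sided permutation test gave 0.0286, the smallest p that 4 against 4 arrays allow. Any gene without overlap of its arrays gets this unadjusted value, so it restates the separation, which 8.95% of all tested genes showed.

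Cpt2, the inner-membrane carnitine palmitoyltransferase that releases acyl-CoA inside the mitochondrion, had GFP-high arrays close to each other. Its levels were 4.48, 4.49, 4.40 and 4.40 in GFP-high and 3.60, 3.45, 3.96 and 4.21 in GFP-low replicates 1 to 4. The groups did not overlap, and the 2 GFP-low arrays of slide 2 lay closer to the GFP-high ones than those of slide 1. The difference was 0.64 ± 0.24 (1.56-fold), 0.96 within slide 1 and 0.32 within slide 2, with a limma adjusted p of 0.307 and an exact permutation p of 0.0286. With normexp background correction it was 0.42.

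The acyl-CoA dehydrogenases, which take the first step of each round of oxidation on chains of different length, did not lean one way. Acadvl, the very-long-chain enzyme, had levels of 5.31, 5.41, 4.96 and 5.17 in GFP-high and 4.82, 4.73, 3.69 and 4.99 in GFP-low replicates. GFP-low replicate 4 overlapped the GFP-high group, and replicate 3 was the lowest. The difference was 0.65 ± 0.32 (limma adjusted p 0.390, exact permutation p 0.0571), and it was 0.28 after correction for the base composition of the probes. Acadl, the long-chain enzyme, had the lowest difference in fat oxidation. Its levels were 0.61, 0.79, 2.42 and 2.13 in GFP-high and 2.92, 2.41, 3.19 and 2.21 in GFP-low replicates. Both slide 1 arrays of GFP-high cells were low, and of those of slide 2, replicate 3 reached into the GFP-low range. The difference was -1.19 ± 0.47, or 2.29-fold lower, at a limma adjusted p of 0.317 and an exact permutation p of 0.0857. It was -1.96 within slide 1 and -0.42 within slide 2. Acadm, the medium-chain enzyme, had a difference of -0.07 ± 0.37.

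Electrons from these dehydrogenases pass to the electron transfer flavoprotein, whose 2 subunits are Etfa and Etfb. Etfa levels were 3.94, 4.28, 5.22 and 4.76 in GFP-high and 5.23, 4.43, 5.29 and 4.60 in GFP-low replicates, a difference of -0.34 ± 0.36 (limma adjusted p 0.668). The groups overlapped, and the difference was -0.72 within slide 1 but 0.05 within slide 2. Etfb had a difference of 0.30 ± 0.27. The difference between the subunits was not tested.

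The remaining genes of uptake and oxidation had differences from -0.24 to 0.45, and all their intervals crossed 0. Cpt1b, the muscle form of the outer-membrane carnitine palmitoyltransferase, was at 0.45 ± 0.23, with 0.43 and 0.46 within the slides and 0.29 on its second probe. Cpt1a, the form known from liver, was at -0.14 ± 0.79 on a dimmer and more variable probe and at 0.15 on its second probe. Slc25a20, the carnitine-acylcarnitine carrier, was at 0.43 ± 0.40. Cd36 was at 0.44 ± 0.50, but -0.37 within slide 1 and 1.26 within slide 2, and its second probe gave -0.61. That dimmer Cd36 probe was above background on 2 arrays of GFP-high and 3 of GFP-low cells. Hadhb and Hadha encode the subunits of the trifunctional protein, and they were at 0.28 ± 0.31 and -0.24 ± 0.34. The other Hadha probes were above background on 0 and 1 of the 8 arrays. Echs1, the short-chain enoyl-CoA hydratase, was at 0.23 ± 0.25.

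**Figure D2:**
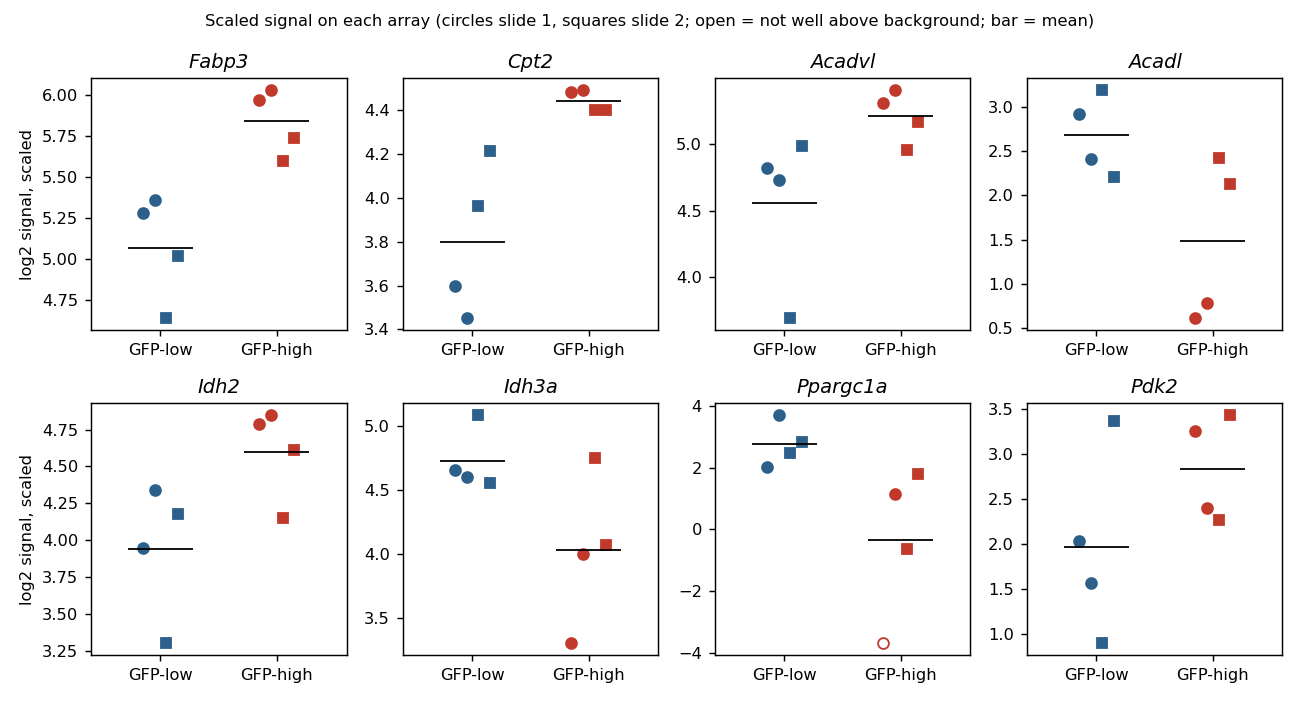
Scaled log2 signal of 8 genes on each array, GFP-low in blue and GFP-high in red, with the group mean as a bar (vertical scales differ between panels). Fabp3 and Cpt2 are separated upwards and Ppargc1a downwards, while the slide 1 arrays (circles) of Acadl in GFP-high cells lie below those of slide 2 (squares).

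In the citric acid cycle, 6 of 9 genes had a positive difference, and the median was 0.14, just under that of all tested genes. The isoforms of isocitrate dehydrogenase stood at the ends of the range. Idh2, the NADP-dependent mitochondrial enzyme, had levels of 4.79, 4.85, 4.15 and 4.61 in GFP-high and 3.95, 4.34, 3.30 and 4.18 in GFP-low replicates. GFP-high replicate 3 lay below 2 of the GFP-low arrays, so the groups overlapped. The difference was 0.66 ± 0.30 (1.58-fold, limma adjusted p 0.362, exact permutation p 0.0857), and it was 0.68 within slide 1 and 0.64 within slide 2.

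Idh3a, the catalytic subunit of the NAD-dependent enzyme of the cycle, had levels of 3.30, 4.00, 4.75 and 4.07 in GFP-high and 4.66, 4.60, 5.09 and 4.56 in GFP-low replicates. Only GFP-high replicate 3 reached the GFP-low range. The difference was -0.70 ± 0.33, or 1.62-fold lower, with a limma adjusted p of 0.375 and an exact permutation p of 0.114. It was -0.98 within slide 1 and -0.42 within slide 2. The opposite directions of Idh2 and Idh3a were not tested against each other.

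Mdh2, the malate dehydrogenase that closes the cycle, had levels of 8.88, 8.70, 8.35 and 8.75 in GFP-high and 8.32, 8.41, 8.31 and 8.53 in GFP-low replicates. The groups overlapped through GFP-high replicate 3, and the difference was 0.28 ± 0.22 (limma adjusted p 0.568). It was -0.04 with quantile normalization. Pdha1, a subunit of pyruvate dehydrogenase, which admits pyruvate to the cycle, had levels of 5.19, 5.16, 5.45 and 4.87 in GFP-high and 5.25, 5.06, 5.34 and 5.49 in GFP-low replicates. These overlapped fully, with a difference of -0.12 ± 0.23 (limma adjusted p 0.825). The second Pdha1 probe gave -0.85, at an adjusted p of 0.306 when limma was fitted to every probe.

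Citrate synthase (Cs), succinyl-CoA ligase (Suclg1), fumarase (Fh1) and the oxoglutarate dehydrogenase subunits Ogdh and Dlst lay between -0.09 and 0.18. Each had an interval inside a 2-fold change in either direction. The neighbouring Ogdh probes printed above gave 0.10 and 0.17. The 3 Dlst probes gave -0.09, 0.68 and -0.21, the last from a dim probe above background on 3 arrays of each group. Cs was at -0.04 and Ogdh at -0.06 with quantile normalization, so the direction of such small differences depended on the scaling.

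**Figure D3:**
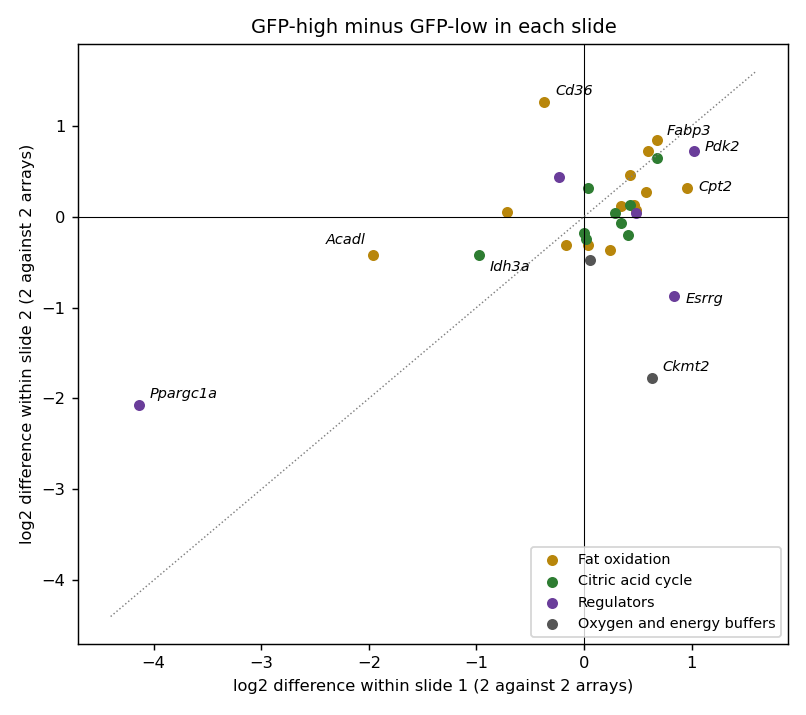
Difference between GFP-high and GFP-low cells (log2) within slide 1 (horizontal, 2 against 2 arrays) and within slide 2 (vertical) for the 30 tested genes, coloured by role. Ppargc1a is negative in both, Fabp3 and Pdk2 are positive in both, and Cd36, Esrrg and Ckmt2 lie in opposite directions in the 2 slides. In all, 18 of 30 genes had the same sign, and this share was not computed over all tested genes.

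The regulators had a median difference of 0.10, with 3 of 5 tested genes positive. The largest difference of all 30 genes belonged to Ppargc1a, the coactivator PGC-1 alpha. Its levels were -3.70, 1.16, -0.62 and 1.81 in GFP-high and 2.03, 3.72, 2.48 and 2.85 in GFP-low replicates. All GFP-low arrays lay above all GFP-high arrays. The GFP-high group was widely spread (-0.34 ± 2.46, SD, n = 4, against 2.77 ± 0.71), and its lowest array, replicate 1, was not well above background. The difference was -3.11 ± 1.09 (SE), or 8.61-fold lower, with a 95% interval from -5.60 to -0.61. Its limma adjusted p was 0.278, and the exact permutation p was 0.0286. Leaving out GFP-high replicate 1 moved it to -1.99, and it was -4.14 within slide 1 and -2.07 within slide 2.

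The second Ppargc1a probe did not show a difference of that size. It was above background on all 8 arrays, gave -0.54, and had a limma adjusted p of 0.796 in the fit of every probe. It is annotated to a different transcript record from the first probe, and whether both read the same transcript was not tested. With the probes averaged, the difference of Ppargc1a was -1.82 ± 0.89 and the groups overlapped. With normexp background correction of the first probe it was -2.22, at the smallest adjusted p of any setting (0.107, range 0.107 to 0.852).

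The estrogen-related receptors, partners of PGC-1 alpha, had small differences on their brightest probes. Esrra, estrogen-related receptor alpha, had levels of -0.01, -0.23, -0.98 and -0.33 in GFP-high and -0.53, -0.68, -0.69 and -0.68 in GFP-low replicates. GFP-high replicate 3 was the lowest of all 8, and the difference was 0.26 ± 0.26 (limma adjusted p 0.658). Esrrg, estrogen-related receptor gamma, had levels of 1.09, 1.21, 0.09 and 1.39 in GFP-high and -0.09, 0.71, 2.15 and 1.07 in GFP-low replicates. The difference was -0.01 ± 0.50 (limma adjusted p 0.993), as 0.84 within slide 1 and -0.87 within slide 2 cancelled. The second Esrrg probe, not above background on 1 of the GFP-high arrays, gave -2.20 (limma adjusted p 0.341 in the fit of every probe).

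Pyruvate dehydrogenase kinases phosphorylate pyruvate dehydrogenase and slow the use of glucose carbon. Pdk2 levels were 3.25, 2.39, 2.26 and 3.43 in GFP-high and 2.03, 1.56, 0.89 and 3.36 in GFP-low replicates. Only GFP-low replicate 4 made the groups overlap, and with that array left out 14.3% of all tested genes had no overlap. The difference of Pdk2 over all arrays was 0.87 ± 0.54 (limma adjusted p 0.473). It was 0.50 after correction for the base composition of the probes. Pdk4, the kinase known to be induced by fatty acids, had levels of 2.20, 0.97, 2.67 and 1.96 in GFP-high and 1.85, 1.78, 1.81 and 1.94 in GFP-low replicates. The GFP-low arrays agreed closely and the GFP-high arrays lay on both sides of them, with a difference of 0.10 ± 0.36 (limma adjusted p 0.907).

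The oxygen-binding protein myoglobin (Mb) had levels of 3.05, 3.90, 3.76 and 2.23 in GFP-high and 2.80, 4.03, 3.82 and 3.13 in GFP-low replicates. The groups overlapped, and the difference was -0.21 ± 0.45 (limma adjusted p 0.841). Ckmt2, the mitochondrial creatine kinase of striated muscle, had levels of -0.74, 0.45, -3.93 and -0.83 in GFP-high and -0.91, -0.63, 0.30 and -1.51 in GFP-low replicates. The difference of -0.58 ± 0.87 (limma adjusted p 0.767) turned to 0.31 without GFP-high replicate 3, the 1 array on which Ckmt2 was not above background.

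Each gene group was also summarised on each array, as the median deviation of its genes from their own 8-array means. The fat oxidation genes gave 0.16, 0.33, 0.21 and 0.18 in GFP-high and -0.12, -0.12, -0.18 and 0.03 in GFP-low replicates. These did not overlap. The groups overlapped for the 19 tested genes of a longer fat oxidation list, at 0.27, -0.10, 0.13 and 0.13 against 0.06, -0.25, -0.09 and 0.03. All tested genes gave 0.24, 0.22, -0.05 and 0.06 in GFP-high and -0.01, 0.02, -0.19 and 0.05 in GFP-low replicates, with overlap. The citric acid cycle genes overlapped, at 0.32, 0.17, -0.04 and -0.19 against 0.07, 0.04, -0.22 and 0. The median difference of fat oxidation was 0.39 within slide 1 and 0.13 within slide 2, beside 0.27 and 0.06 for all tested genes. With quantile normalization it was 0.12, beside 0.10 for all tested genes.

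**Figure D4:**
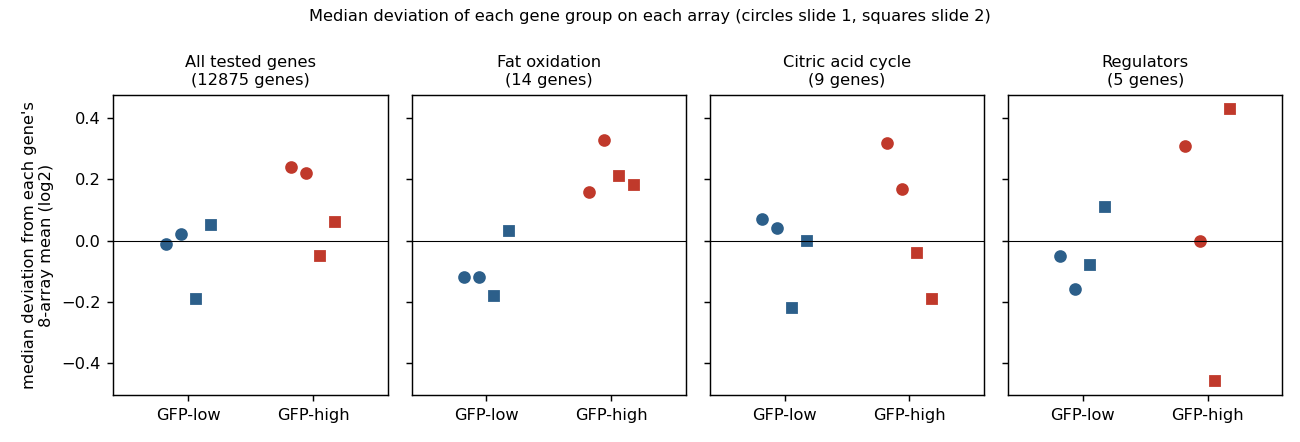
Median deviation from each gene's own 8-array mean (log2) on each array, for all 12875 tested genes, 14 fat oxidation genes, 9 citric acid cycle genes and 5 regulators. The GFP-high arrays of fat oxidation (0.16 to 0.33) lie above its GFP-low arrays (-0.18 to 0.03), and the groups overlap in the other panels. Over all tested genes, GFP-high replicates 1, 2 and 4 (0.24, 0.22 and 0.06) also lie above every GFP-low array (highest 0.05). Only GFP-high replicate 3 (-0.05) makes these groups overlap. A longer fat oxidation list (19 genes, not shown) overlapped, and how often other sets of 14 genes separate was not tested.

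Differences leaned with the base composition of the probes. Over the 30 genes, the difference and the G+C content of the probe had a Spearman coefficient of 0.30, and over all tested genes 0.27, given as a description over probes that share the same 8 arrays. The 9 genes whose probes have at most 40% G+C, which include Acadl, Idh3a and Ppargc1a but also Fabp3, had a median difference of -0.21. The 6 genes with more than 45% G+C had 0.28. Over all tested genes, probes in these ranges had medians of -0.02 and 0.34. After a correction for G+C content, Ppargc1a was at -2.97, Acadl at -0.98 and Idh3a at -0.52, while Fabp3 was at 0.94 and Cpt2 at 0.54.

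A longer list held 67 further genes of the same routes, of which 66 were on the array and 60 were tested. None was called by limma, 13 (21.7%) had an unadjusted p under 0.05, and 9 (15%) had arrays that did not overlap, against 14.3% and 8.95% of all tested genes. The 13 became 6 without GFP-low replicate 3, 7 without GFP-high replicate 1 and 8 without GFP-low replicate 2. There the share over all tested genes was 9.67%, 10.4% and 12.4%. With probes averaged the 13 became 20 and with the replicate block 16, where that share was 14.5% and 18.5%. Over all settings the number ran from 2 (within slide 2, 6.14%) to 20. The 9 became 15 without GFP-high replicate 4, 14 without GFP-high replicate 3 and 3 with median scaling, where the share over all tested genes was 13.1%, 22% and 7.66%. Among the further genes of fat oxidation (19 tested, median 0.17), the fatty acid transporter Slc27a1 was at 1.23 ± 0.37, without overlap, and 2.09 on its second probe. That probe was above background on 4 arrays of GFP-high and 2 of GFP-low cells. The acyl-CoA thioesterase Acot2 was at 1.02 ± 0.74. The lowest were the acyl-CoA synthetase Acsl3, at -3.04 ± 1.08 without overlap, and lipoprotein lipase (Lpl), at -1.75 ± 0.63. Acsl3 was not above background on GFP-high replicate 2 (-4.36), nor Lpl on GFP-high replicate 4 (-2.87), so both sizes rest partly on background values. Acsl3 was at -4.54 within slide 1 and at -1.53 within slide 2. The limma adjusted p of these 4 genes lay between 0.238 and 0.535.

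Acyl-CoA synthetases, which activate fatty acids before they enter the shuttle, were looked at together after their values were seen, so their values are a description. The 4 tested genes lay below 0: Acsl3 as above, Acsl1 at -0.93 ± 0.29 without overlap and at -1.09 and -1.45 on its other probes, Acsl4 at -1.13 ± 0.49 and Acsl5 at -0.76 ± 0.33. None changed sign under any of the alternative settings in which it was fitted (23 for Acsl3, 24 for the others). These settings refit the same arrays, and the genes were grouped after their values were seen, so the kept signs are not separate evidence. Another, Acsl6, was too dim to be tested. Also named after their values were seen are the enoyl-CoA isomerases Eci1 (0.55 ± 0.23) and Eci2 (0.54 ± 0.27), which act on unsaturated fatty acids and did not overlap between the groups. Their limma adjusted p was 0.331 and 0.392, and 5.86% of all tested genes separated in this direction. Eci1 was at 0.18 after correction for G+C content. Eci2 was at 0.86 within slide 1 and at 0.22 within slide 2.

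Among the further genes of the cycle and of pyruvate oxidation (18 tested, median 0.20), Idh3g, a regulatory subunit of the same enzyme as Idh3a, was at 0.70 ± 0.24 without overlap (limma adjusted p 0.271). Sdhc, a membrane anchor of succinate dehydrogenase, was at 0.43 ± 0.30. The lowest were Dld, the dihydrolipoamide dehydrogenase shared by the pyruvate and oxoglutarate complexes, at -1.72 ± 0.62 (limma adjusted p 0.287), and Mpc1, a subunit of the mitochondrial pyruvate carrier, at -0.52 ± 0.29. The other Dld probes gave -1.73 and -1.01. Dld was at -2.53 within slide 1 and at -0.92 within slide 2.

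Among the further regulators (17 tested, median 0.11), the fatty-acid receptor Ppard was at 1.22 ± 0.54 (limma adjusted p 0.350) and the deacetylase Sirt1 at 0.94 ± 0.69, though Sirt1 gave -0.58 with its probes averaged. The lowest were Prkaa2, a catalytic subunit of AMP-activated kinase (-2.71 ± 0.92), and the transcription factor Mef2a (-2.56 ± 1.20), each above background on 1 array of GFP-high and 3 of GFP-low cells. Both passed the filter mainly through GFP-low cells and their sizes rest on values at background: Mef2a was at -0.39 with a common floor for dim spots and Prkaa2 at -0.64 with normexp background correction. Prkaa1, the other catalytic subunit of that kinase, was at -1.22 ± 0.57 on its brightest probe (limma adjusted p 0.367). With the probes averaged it was at -2.24 ± 0.28, with an adjusted p of 0.0295, the 1 gene of these lists called under any setting. Its adjusted p ran from 0.0295 to 0.988 over the settings, and its second probe was not above background on any GFP-high array.

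Among the further buffering genes (6 tested, median 0.18), mitochondrial creatine kinase Ckmt1 was at 1.25 ± 0.46 (limma adjusted p 0.294) and the adenine nucleotide carrier Slc25a4 at 0.38 ± 0.22. The adenylate kinase Ak1 was at -0.14 ± 0.34.

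Estrogen-related receptors bind the element TCAAGGTCA, which ends in the core hexamer AGGTCA of nuclear receptors. Both were searched on both strands of 300-base windows around each gene's start, taken from RefSeq (assembly GRCm38.p6), where 30 of the 32 genes were matched with 41 windows. The element was in the window of 0 of these 30 genes and of 0.466% of 27025 genes. The hexamer was in 9 of the 41 windows (22%), against 16.3% of all 32851 windows. The genes with the hexamer were Acadm, Acadvl, Cd36, Cpt1a, Echs1, Fh1, Mb and Ogdh. A tandem pair of the hexamer with 1 base between, the arrangement bound by PPAR with its partner RXR, was in the window of 0 of the 30 genes and of 0.0481% of all genes.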

How the data were processed

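RNA from 4 GFP-high and 4 GFP-low samples was read on 1-colour Agilent arrays. The deposited files hold spot intensities from Agilent Feature Extraction 10.5.1.1 (named in the submitters' processing notes), which, per the file headers, subtracted background and replaced the lowest values (34.8% to 49.4% of non-control spots) by surrogates. No spot was saturated, and the whole-series table that the authors deposited repeats these intensities.

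From these, log2 of the processed signal was computed and scaled by the 75th percentile of each array's non-control spots. Control and outlier spots were left out, spots of a probe were averaged, and the probe with the highest mean stood for its gene. Of 41174 probes, 33070 received a current symbol from the RefSeq table (assembly GRCm38.p6). Genes whose probe was well above background on 4 or more of 8 arrays were tested with limma 3.58.1 in R 4.3.3 (lmFit, eBayes; group as the only term), with Benjamini-Hochberg adjustment over all tested genes and a threshold of 0.05. Exact permutation tests ran over all 70 assignments of the arrays. The fit was tested on simulated data.

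The genes and lists were chosen with earlier results of these data known. Values on every array are given for called or non-overlapping genes, the 2 largest and 2 smallest differences in each role (all genes of a role with fewer than 5), and all regulators. Genes of the longer lists are named if called or among the 2 largest in each direction; 1 gene that this rule names is not reported here. Of the other marker lists, 4 of 8 erythroid, 2 of 10 endothelial, 4 of 10 cushion, 1 of 6 epicardial, 4 of 5 smooth muscle and 0 of 6 endodermal genes were above background on all arrays, and the summed levels of the groups overlapped in each. The correction for G+C content was chosen after seeing the data. The number of arrays limits the precision.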

Additional observations from a re-analysis of the deposited data

Results flagged for a closer look

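In 3 of 60 groups of 4 arrays, 1 array stood apart from the other 3 by a gap wider than Dixon's 95% critical value for 4 values, and chance alone gives about 1 in 20 groups, or 3. Cs in GFP-high replicate 1 was at 6.30, above the other GFP-high arrays, with a gap of 0.93 of the range. Ogdh in GFP-low replicate 3 was at 4.41, below the other GFP-low arrays, with a gap of 0.838. Esrra in GFP-low replicate 1 was at -0.53, above the other GFP-low arrays, with a gap of 0.914.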

How the results depend on the processing

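Over 24 alternative settings no member was called. Of 718 values of single members, 673 kept their direction, 42 took the other and 3 rounded to 0. Of the 30 tested members, 14 kept their direction throughout, among them Fabp3, Cpt2, Acadl, Idh2, Idh3a, Pdk2 and Ppargc1a. The settings refit the same arrays, so kept directions are not separate evidence, and the share over all tested genes was not computed. The fat oxidation median (0.29) was 0.12 with quantile normalization, 0.15 with normexp, 0.18 with both, 0.39 within slide 1, 0.13 within slide 2, and 0.20 to 0.33 with 1 replicate left out. The citric acid cycle median (0.14) was -0.08 with normexp and quantile and -0.07 within slide 2. The regulator median (0.10) was 0.48 within slide 1. Non-overlapping members numbered 3 to 11 with 1 replicate left out. The share of all tested genes without overlap was also higher in each of these refits than with every array, and highest where the 11 arose. Members with an unadjusted p under 0.05 (4) numbered from 0 (within slide 2, 6.14% of all genes) to 8 (trend and robust, 15.8%) over the settings. Further pathway genes called numbered 1 with probes averaged. The replicate numbers are shared by the groups, and same-numbered arrays had correlations of 0.06 to 0.30 in their deviations, against -0.20 to 0.08 for other pairs. All 4 GFP-high arrays and 3 of 4 GFP-low arrays correlated best with their own number, a hint from the data and not from the design. With the replicate block, 0 members and 0 genes in all were called, and the medians remained 0.29, 0.14 and 0.10. With slide as a block 11 genes in all were called, with normexp 20, with quantile normalization 9, with median scaling 0, with the common floor for dim spots 42, and without the filter on dim genes 3; with every probe as a row 7 were called.

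Members changed sign as follows; the causes were not tested. With probes averaged, Cd36 was -0.08, Cpt1a 0.01, Hadha 0.38 and Dlst 0.13. With normexp, Cs was -0.02 and Ogdh -0.08. With quantile normalization, Cs was -0.04, Ogdh -0.06, Suclg1 -0.01 and Mdh2 -0.04. With both, Cs was -0.08, Ogdh -0.07 and Mdh2 -0.08. After G+C correction, Etfb was -0.07, Pdha1 0.02 and Ogdh -0.23. Within slide 1, Cd36 was -0.37, Cpt1a 0.04, Acadm 0.24, Pdha1 0.02, Esrrg 0.84, Pdk4 -0.23, Mb 0.06 and Ckmt2 0.63. Within slide 2, Etfa was 0.05, Ogdh -0.20 and Suclg1 -0.07. With 1 replicate left out, Ogdh ran from -0.04 to 0.28, Cpt1a from -0.74 to 0.36, Esrrg from -0.36 to 0.38, Pdk4 from -0.13 to 0.43, Ckmt2 from -1.15 to 0.31, Acadm from -0.27 to 0.20, Hadha from -0.41 to 0.03, Dlst from -0.18 to 0.08 and Mb from -0.43 to 0.13.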
